A study of Homo sapiens with 6 samples.

Results

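The genes examined were those of the collagens, the structural proteins of the extracellular matrix whose chains wind around one another in triple helices. Members were the genes of the authors' normalized table whose symbol was COL, a type number, A and a chain number, which gave 34 of its 23026 genes. The count tables listed 10 more genes of that form, all at 5 counts or fewer in every library, so that 44 collagen genes were looked up in all. T98G, a human glioblastoma line grown in serum, had been infected with a lentivirus expressing a control hairpin (shControl) or a hairpin against the kinase DYRK1A (shDYRK1A), selected with puromycin and left to recover without it, and 3 libraries (1A, 1B and 1C) were sequenced per condition. Both groups therefore carried an integrated hairpin vector and had passed through the drug, and none of these libraries came from uninfected cells. Equal numbers of T98G cells had been mixed with a fixed number of fly Kc167 cells before RNA extraction, and counts divided by the size factor that the authors derived from the fly reads are called normalized counts here.

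Collagens differ in how they assemble. Fibrillar collagens (types I, II, III, V, XI, XXIV and XXVII) pack into banded fibrils and are trimmed at their ends before they do so. Type IV chains form the sheet of basement membranes, the short-chain types VIII and X form open lattices, type VI forms beaded microfibrils close to the cell, and fibril-associated collagens sit on the surface of fibrils. Glioblastoma lines grown in serum are known to express several of these types.

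Gene counts per library summed to between 33708297 and 42154438 and the size factors ran from 0.821 to 1.21. DYRK1A itself had normalized counts of 2227, 2234 and 1895 in shControl and 1482, 1056 and 1285 in shDYRK1A. All shDYRK1A libraries lay below all shControl libraries, with a log2 fold change of -0.73 ± 0.15 (SE) and an adjusted p of 5.3e-06 by edgeR's quasi-likelihood test with Benjamini-Hochberg adjustment. That change fell short of the fold threshold of -0.7 without shControl 1A (-0.696), without shControl 1B (-0.693), without shDYRK1A 1B (-0.61) and under TMM scaling, described below (-0.34). The library shDYRK1A 1B had the highest share of unmapped reads (15.6%) and differed most from the others of its group. Of the glial and glioblastoma markers looked up, VIM (1530 to 1975 CPM, that is counts per 1000000 gene counts) and CD44 (1401 to 1591 CPM) were abundant, GFAP had at most 4 counts and S100B none. SOX9 had 33.7 to 45.5 CPM, NES 1.29 to 2.02 CPM and OLIG2 1.06 to 1.87 CPM, and SOX2 had at most 2 counts. DCN, a fibroblast marker, had at most 3 counts in any library, PTPRC of blood cells at most 6 and RBFOX3 of neurons at most 1, while PECAM1 of endothelium reached 20 and EPCAM of epithelium 65.

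A mean of more than 10 CPM after spike-in scaling was required for testing, which 18 of the 34 collagen genes and 9697 genes in all passed. On the spike-in scale most genes moved down together: the median log2 fold change of the 9697 genes was -0.40, and 93.6% of them were below 0. Scaling by TMM (trimmed mean of M values), which assumes that the typical human gene does not change, raised the fold changes by about 0.40 and brought that median to 0.00. In bulk RNA, less RNA per cell and fewer human cells beside the fly cells cannot be told apart. Each direction is therefore given on the spike-in scale and also, where TMM changed it, relative to the typical gene.

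Promoter sequence from RefSeq (GRCh38.p14) is shown for 3 members whose change is described below and whose stretch overlaps no GENCODE v29 exon. These are COL4A5, which rose with its neighbour COL4A6, and COL27A1 and COL7A1, which fell. Each stretch is the 250 bases before the RefSeq start, on the strand of the gene, and capitals mark matches on either strand to the GC box (GGGCGG), the CCAAT box (CCAAT) or the TATA box (TATAAA). The COL4A5 stretch is chrX:108439588-108439837 on the plus strand, the COL27A1 stretch chr9:114155287-114155536 on the plus strand and the COL7A1 stretch chr3:48595330-48595579 on the minus strand.
COL4A5: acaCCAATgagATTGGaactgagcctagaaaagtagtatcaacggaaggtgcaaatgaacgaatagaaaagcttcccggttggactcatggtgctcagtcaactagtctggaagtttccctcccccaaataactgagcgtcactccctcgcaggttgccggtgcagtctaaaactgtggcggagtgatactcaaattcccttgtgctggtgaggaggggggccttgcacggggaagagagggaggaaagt
COL27A1: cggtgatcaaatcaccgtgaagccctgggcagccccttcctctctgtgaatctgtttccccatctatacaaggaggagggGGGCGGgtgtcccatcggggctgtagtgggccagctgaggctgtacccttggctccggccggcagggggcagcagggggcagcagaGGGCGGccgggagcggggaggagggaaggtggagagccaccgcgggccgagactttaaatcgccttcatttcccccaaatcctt
COL7A1: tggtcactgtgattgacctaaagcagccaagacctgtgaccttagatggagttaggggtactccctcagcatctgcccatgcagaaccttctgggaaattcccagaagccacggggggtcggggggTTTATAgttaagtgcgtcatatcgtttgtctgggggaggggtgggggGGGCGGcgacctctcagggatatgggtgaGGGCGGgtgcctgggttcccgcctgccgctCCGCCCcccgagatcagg
The COL4A5 stretch held 2 CCAAT boxes and no GC box at 51.2% GC, the COL27A1 stretch 2 GC boxes at 64.4% GC, and the COL7A1 stretch 3 GC boxes and 1 TATA box at 60.8% GC. The RefSeq table held windows for 23 of the 34 members, 32 windows in all, since some genes have several starts. A GC box stood in 56.2% of these 32 windows against 42.6% of the 35116 windows of all genes, a CCAAT box in 21.9% against 32.0%, and a TATA box in 15.6% against 10.7%. The AP-1 site (TGANTCA) and the palindrome that the study associates with DYRK1A (TCTCGCGAGA) were in 0 of the 32 windows, and in 6.57% and 0.373% of all windows. A match describes letters only, and which of the annotated starts T98G cells use was not measured.

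**Figure D1:**
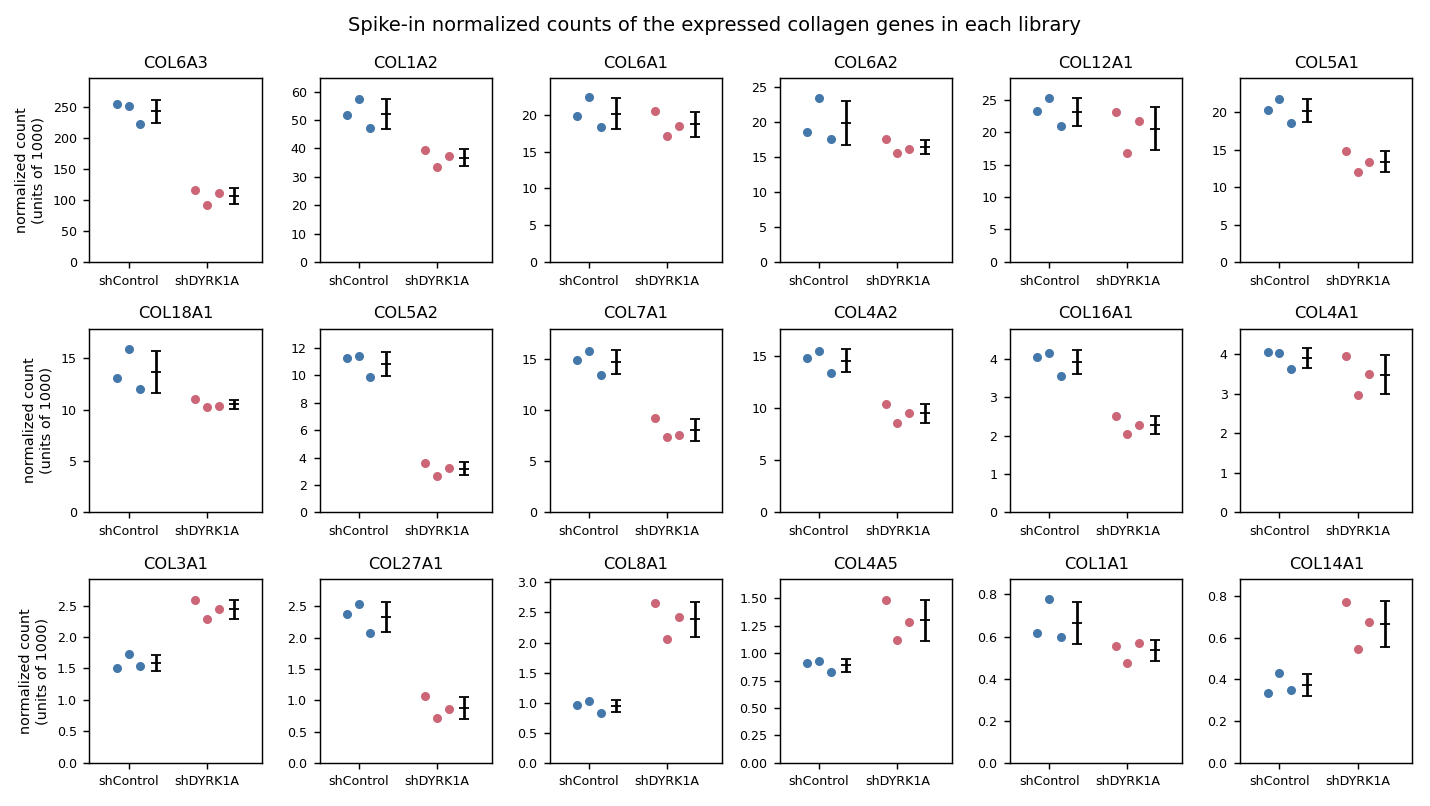
Normalized counts (vertical axis, in units of 1000, from 0, a separate scale for each gene) of the 18 tested collagen genes, ordered by shControl level per kilobase. Each point is 1 library (blue shControl, red shDYRK1A, 1A, 1B and 1C from left to right) and the bar beside them is the mean with its SD (n = 3). COL6A3 runs from 91073 to 254450.4, and COL8A1, COL14A1, COL3A1 and COL4A5 are the genes whose red points all lie above the blue ones.

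Type VI collagen led the collagen mRNA of these cells. COL6A3, the large chain of its microfibrils, took 54.2% ± 1.4 (SD, n = 3) of all collagen counts in shControl and 41.1% ± 1.2 in shDYRK1A. Per kilobase of exon, COL6A3 was again first in shControl with 12358 ± 910 normalized counts, ahead of COL1A2 with 4684 ± 467, COL6A1 with 3777 ± 390 and COL6A2 with 3685 ± 582. COL6A1 and COL6A2 did not differ beyond their spread. COL12A1 (1856 ± 173) and COL5A1 (1809.6 ± 142) followed and did not differ beyond theirs, and the tested genes ended with COL4A5 at 74.8 ± 4.75, COL1A1 at 67.6 ± 10.1 and COL14A1 at 43.0 ± 5.98. COL1A1 stood far below COL1A2, although a type I molecule normally holds more COL1A1 than COL1A2 chains.

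Among the 18 tested genes, 5 were called lower and 2 higher, where a call needed a log2 fold change beyond -0.7 or 0.7 at an adjusted p below 0.05. Of all 9697 genes, 14.3% were called lower and 0.278% higher. COL5A2, COL27A1, COL6A3, COL7A1 and COL16A1 were the lower ones, and COL8A1 and COL14A1 the higher ones. Leaving out any 1 of the 6 libraries kept the 7 calls. By adjusted p alone, 9 collagen genes were lower and 4 higher, where 63.4% and 1.08% of all genes were. The groups did not overlap in normalized counts for 11 genes that were lower and 4 that were higher, as in 63.6% and 1.59% of all genes. The median of the 18 fold changes was -0.35, close to the -0.40 of all genes, but they were spread more widely, with quartiles at -0.74 and -0.12 against -0.58 and -0.23. Under TMM, 7 collagen genes were lower and 7 higher by adjusted p alone (28.6% and 27.3% of all genes), and 3 lower and 4 higher with the fold threshold added (1.93% and 1.25%).

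**Figure D2:**
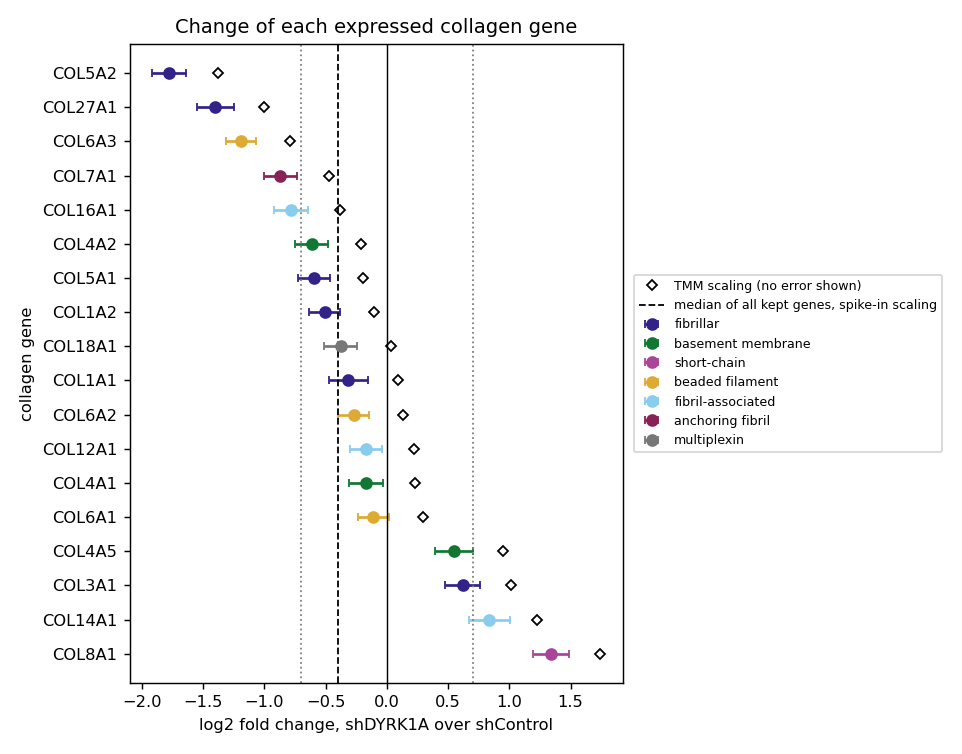
Log2 fold change of shDYRK1A over shControl (horizontal axis) for the 18 tested collagen genes (vertical axis), colored by class. Filled points are edgeR estimates on the spike-in scale with their SE, open diamonds the TMM estimates, the dashed line the median of all tested genes (-0.40) and the dotted lines the -0.7 and 0.7 thresholds. The genes run from COL5A2 at -1.78 to COL8A1 at 1.34, and the diamonds stand about 0.40 to the right of the points.

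Of the 9 fibrillar collagens 6 were tested: 2 were called lower and none higher, where 14.3% of all genes tested were called lower and 0.278% higher. By adjusted p alone 4 were lower and 1 higher, with a median of -0.55, where 63.4% of all genes tested were lower and 1.08% higher. Under TMM 3 of these members were lower and 1 higher by adjusted p, with a median of -0.15. COL5A2 (chromosome 2, 189031896 to 189179879, minus strand) encodes a chain of type V collagen, which is built into type I fibrils and limits their width. It had normalized counts of 11263, 11437 and 9855 in shControl against 3608, 2666 and 3227 in shDYRK1A. Every shDYRK1A library lay below every shControl library, and the log2 fold change was -1.78 ± 0.14 (SE, edgeR adjusted p = 3.6e-34), a 3.43-fold fall. COL27A1 (chromosome 9, 114155560 to 114312511, plus strand), a fibrillar collagen of cartilage and other connective tissue, had 2378, 2544 and 2067 normalized counts in shControl and 1068, 719.9 and 857 in shDYRK1A. Its groups did not overlap either, at -1.40 ± 0.15 (SE, edgeR adjusted p = 2.4e-18).

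The other fibrillar genes stayed inside the fold threshold. COL5A1, the partner chain of COL5A2, had 20395, 21757 and 18591 normalized counts in shControl and 14819, 12071 and 13368 in shDYRK1A, a log2 fold change of -0.59 ± 0.13 (SE, edgeR adjusted p = 3.4e-05). COL1A2 had 51916, 57629 and 47229 in shControl and 39443, 33536 and 37313 in shDYRK1A, at -0.51 ± 0.13 (SE, edgeR adjusted p = 0.00024). Both were lower without overlap of the groups, and COL1A2 was close to the shift shared by all genes, with -0.10 and an adjusted p of 0.10 under TMM in edgeR. COL1A1 had 617, 777 and 597 in shControl and 555, 476 and 570.0 in shDYRK1A, at -0.31 ± 0.16 (SE, edgeR adjusted p = 0.076), without overlap of the groups, and its sign turned under TMM (0.09).

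COL3A1, which forms fibrils beside type I in vessel walls and skin, was the fibrillar gene that rose. It had 1501, 1729 and 1535 normalized counts in shControl and 2594, 2284 and 2439.7 in shDYRK1A, with all shDYRK1A libraries above all shControl ones. The log2 fold change was 0.62 ± 0.14 (SE, edgeR adjusted p = 8.8e-05), inside the threshold, and 1.02 under TMM, past it. COL3A1 (chromosome 2, 188974320 to 189012746, plus strand) and COL5A2 lie tail to tail with 19150 bases between their ends, and their fold changes stood at opposite ends of the class.

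The basement membrane class moved in both directions. Of its 5 members 3 were tested and none was called, and by adjusted p alone COL4A2 was lower and COL4A5 higher. Of all genes tested, 14.3% were called lower and 0.278% higher, and by adjusted p alone 63.4% were lower and 1.08% higher. Under TMM 1 of these members was lower and 2 were higher by adjusted p, with a median of 0.23. COL4A1 and COL4A2, whose chains assemble together in nearly every basement membrane, are read in opposite directions from RefSeq starts 127 bases apart on chromosome 13. COL4A2 had 14721, 15481 and 13314 normalized counts in shControl and 10353, 8572 and 9490.5 in shDYRK1A, without overlap, at -0.61 ± 0.13 (SE, edgeR adjusted p = 2.2e-05). COL4A1 had 4059, 4033 and 3613 in shControl and 3948, 2975 and 3499 in shDYRK1A. Its groups overlapped, the log2 fold change of -0.17 ± 0.14 (SE, edgeR adjusted p = 0.27) did not pass the test, and under TMM the sign turned to 0.23 with an adjusted p of 0.0022, while COL4A2 stayed below 0 at -0.21.

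COL4A5 and COL4A6, the chains of a second basement membrane network, share such an arrangement on chromosome X, with their nearest RefSeq starts 380 bases apart. Another RefSeq start of COL4A6 lies 1416 bases from that of COL4A5. COL4A5 (108439844 to 108697545, plus strand) had 911, 929 and 824 normalized counts in shControl and 1488, 1120.1 and 1287 in shDYRK1A. All shDYRK1A libraries were above all shControl libraries, at 0.55 ± 0.15 (SE, edgeR adjusted p = 0.0010), and 0.94 under TMM. COL4A6 (108155607 to 108439497, minus strand) was under the level filter, with 214, 213 and 213 normalized counts in shControl and 349, 269 and 291 in shDYRK1A. It too was higher without overlap, at 0.50 ± 0.18 (SE, edgeR adjusted p = 0.017 over the 17530 genes that edgeR's filterByExpr keeps), as were 1.97% of those genes by adjusted p alone. The stretch printed for COL4A5 lies between the starts of the pair. The fifth member, COL4A4, had 8 to 17 raw counts in every library.

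The short-chain class split. COL8A1 (chromosome 3, 99638475 to 99799226, plus strand), a chain of the lattice found in vessel walls and under the corneal endothelium, had 967, 1033 and 827 normalized counts in shControl and 2653, 2066 and 2432 in shDYRK1A. The lowest shDYRK1A library was above the highest shControl library, and the log2 fold change of 1.34 ± 0.15 (SE, edgeR adjusted p = 5.7e-17) was a 2.53-fold rise. Its partner COL8A2 was under the level filter, with 77.9, 89.6 and 71.1 normalized counts in shControl and 50.1, 41.7 and 38.7 in shDYRK1A. COL8A2 was lower without overlap, at -0.87 ± 0.27 (SE, edgeR adjusted p = 0.0042 over the filterByExpr genes, 44.2% of which were lower by adjusted p alone), and at -0.50 with an adjusted p of 0.046 when TMM was used as well. The third short-chain gene, COL10A1, had no count in any library, which allows up to 3 counts in each.

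In type VI collagen COL6A3 fell and neither COL6A1 nor COL6A2 passed the edgeR test. COL6A3 (chromosome 2, 237324003 to 237414375, minus strand) had 254450.4, 251328 and 222067 normalized counts in shControl and 116145, 91073 and 111834 in shDYRK1A. The groups were far apart, at -1.19 ± 0.12 (SE, edgeR adjusted p = 1.0e-19), a 2.28-fold fall. COL6A1 had 19842, 22417 and 18289 in shControl and 20540.4, 17080.0 and 18511 in shDYRK1A. Its groups overlapped, at -0.11 ± 0.13 (SE, edgeR adjusted p = 0.45). COL6A2 had 18497, 23427 and 17615 in shControl and 17595, 15548 and 16166 in shDYRK1A, at -0.27 ± 0.13 (SE, edgeR adjusted p = 0.056). With DESeq2 on the same scale COL6A2 just passed, at an adjusted p of 0.046. The groups of COL6A2 only just did not overlap. Relative to the typical gene both turned, to 0.29 (adjusted p = 0.00051) for COL6A1 and 0.13 (adjusted p = 0.13) for COL6A2 in edgeR with TMM. COL6A1 and COL6A2 lie on chromosome 21, as does DYRK1A, and COL6A3 does not. COL6A5 and COL6A6 had no count.

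Of the remaining classes, COL7A1 was called lower. This gene (chromosome 3, 48564073 to 48595267, minus strand) encodes the anchoring fibrils that fasten epithelia to the tissue below. It had 14957, 15785 and 13479.7 normalized counts in shControl and 9271, 7359 and 7558 in shDYRK1A. The groups did not overlap, at -0.87 ± 0.13 (SE, edgeR adjusted p = 1.5e-09), and the call was lost under TMM (-0.47) because the fold threshold was no longer met. COL18A1 (chromosome 21, 45405137 to 45513720, plus strand), the parent of endostatin, changed by -0.38 ± 0.13 (SE, edgeR adjusted p = 0.0088), close to the shared shift and 0.03 under TMM. Its adjusted p rose to 0.18 without shControl 1B and 0.071 without shDYRK1A 1C. Of its exonic bases 16.4% overlap a gene on the other strand and 0.0% a gene on its own. Its counts are therefore less certain if the counting ignored strand, which the sources do not say.

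Fibril-associated collagens went both ways. Of 9 members 3 were tested. COL16A1 (chromosome 1, 31652247 to 31704319, minus strand) had 4056, 4151 and 3565 normalized counts in shControl and 2506, 2050.3 and 2281 in shDYRK1A, and was called lower at -0.78 ± 0.14 (SE, edgeR adjusted p = 3.7e-07), a call lost under TMM (-0.38). COL14A1 (chromosome 8, 120059780 to 120372036, plus strand), which binds to the surface of type I fibrils, had 335, 431 and 351 in shControl and 770.3, 548 and 675 in shDYRK1A. Those groups stood apart, at 0.84 ± 0.17 (SE, edgeR adjusted p = 4.2e-06), and 1.23 under TMM. COL12A1, its close relative, had 23322, 25243 and 20933 in shControl and 23123, 16838 and 21739 in shDYRK1A. The groups overlapped at -0.17 ± 0.13 (SE, edgeR adjusted p = 0.23), and TMM turned the sign to 0.23 with an adjusted p of 0.0078. Without shControl 1C the adjusted p of COL12A1 was 0.032, that of COL6A2 0.0021 and that of COL1A1 0.022, all in the lower direction, and without shDYRK1A 1A that of COL6A2 was 0.049.

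Under the level filter were 16 members, of which filterByExpr kept 12. Besides COL4A6 and COL8A2, 2 of these passed an adjusted p of 0.05. Of the 17530 genes that filterByExpr keeps, 44.2% were lower and 1.97% higher by adjusted p alone. COL17A1, a transmembrane collagen of hemidesmosomes, had 19, 21 and 22 raw counts in shControl and 6, 9 and 6 in shDYRK1A, at -1.84 ± 0.48 (SE, edgeR adjusted p = 0.00066). COL22A1, fibril-associated and known from tissue junctions, had 29, 29 and 34 raw counts in shControl and 70, 65 and 91 in shDYRK1A, at 0.99 ± 0.29 (SE, edgeR adjusted p = 0.0023). Both were separated by group and rest on few reads. COL11A2, COL9A3, COL13A1, COL21A1, COL24A1, COL19A1, COL2A1 and COL4A4 did not pass, with fitted log2 fold changes from -0.65 for COL13A1 to 0.50 for COL19A1. When TMM was used as well, COL21A1 (0.71, edgeR adjusted p = 0.041) and COL19A1 (0.87, edgeR adjusted p = 0.019) passed. The share of all genes that pass with this combination was not computed. The remaining members, COL26A1, COL9A2, COL28A1 and COL20A1, had 0 to 9 raw counts per library, too few to show a difference at this depth.

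Ratios between chains of a type do not depend on the scaling of libraries. All 6 pairs separated by group, so each reached a two-sided exact permutation p of 0.1, the smallest that 3 libraries against 3 allow, and 0.1 after Benjamini-Hochberg adjustment over the 6 pairs. How often the ratio of other gene pairs separates was not computed, so the count of 6 is not read as particular to collagens. Omission of some single libraries raised the permutation p to 0.2 for COL1A1 to COL1A2 and for COL6A1 to COL6A2. Raw counts of COL8A1 per count of COL8A2 came to 12.4, 11.5 and 11.6 in shControl against 53.0, 49.6 and 62.8 in shDYRK1A, a 4.63-fold rise. COL5A1 per COL5A2 was 1.81, 1.90 and 1.89 in shControl and 4.11, 4.53 and 4.14 in shDYRK1A, a 2.28-fold rise. COL6A3 per COL6A1 was 12.8, 11.2 and 12.1 in shControl and 5.65, 5.33 and 6.04 in shDYRK1A, a 2.12-fold fall. Each of these 3 pairs holds a called gene. In the other pairs the ratio moved less: COL4A2 per COL4A1 fell from 3.72 ± 0.11 (SD, n = 3) to 2.74 ± 0.13, COL6A1 per COL6A2 rose from 1.02 ± 0.06 to 1.14 ± 0.04, and COL1A2 per COL1A1 fell from 79.1 ± 4.99 to 69.0 ± 3.07. Counts grow with transcript length, so a ratio of raw counts is not a ratio of molecules. Per kilobase, COL1A2 was 69.6 times COL1A1 and COL8A1 5.88 times COL8A2 in shControl.

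**Figure D3:**
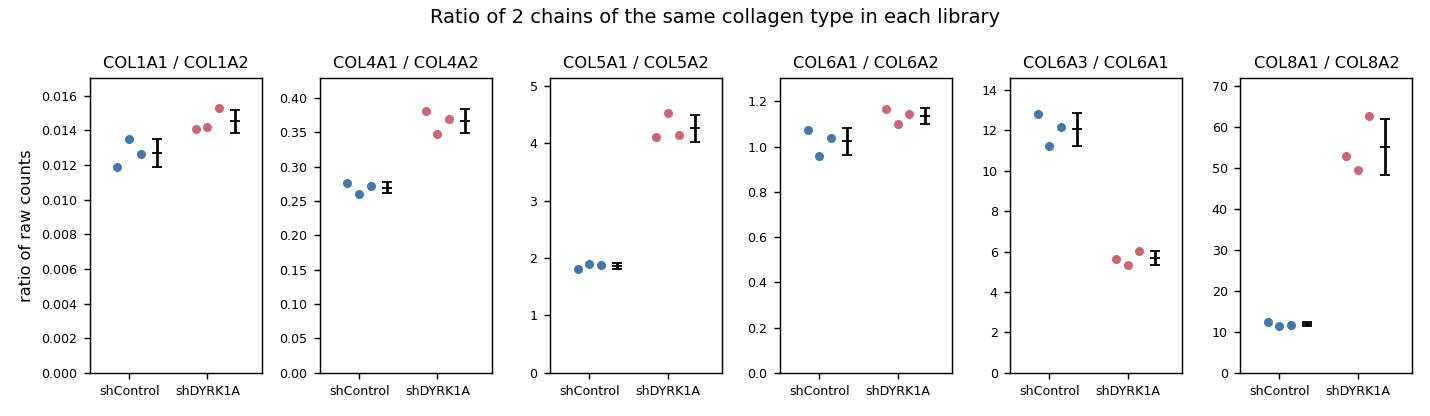
Ratio of raw counts (vertical axis, from 0, a separate scale per pair) of 2 chains of the same collagen type in each library. Points are libraries (blue shControl, red shDYRK1A) and bars the mean with its SD (n = 3). In each panel the groups stand apart, by the most for COL8A1 to COL8A2, which goes from 11.9 to 55.1, and by the least for COL6A1 to COL6A2.

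Summed over the 44 genes, collagens took 0.952%, 0.997% and 1.02% of human gene counts in the shControl libraries and 0.771%, 0.730% and 0.794% in those of shDYRK1A. The 95% Wilson interval of shControl 1A, the lowest control library, was 0.949 to 0.956%, and that of shDYRK1A 1C, the highest knockdown library, 0.791 to 0.797%, and both cover counting error only. The mean share was 0.989 ± 0.033% (SD, n = 3) in shControl and 0.765 ± 0.032% in shDYRK1A, a difference of -0.22 percentage points. Type VI genes carried most of that difference, going from 0.624 ± 0.017% to 0.419 ± 0.022%, and fibrillar genes went from 0.195 ± 0.010% to 0.170 ± 0.004%. The basement membrane share overlapped between groups at 0.043% in both, and the short-chain share rose from 0.0023 ± 0.0001% to 0.0072 ± 0.0004%. Within the collagen counts, COL1A2 went from 11.7% ± 0.38 to 14.3% ± 0.39 and COL6A1 from 4.51% ± 0.18 to 7.25% ± 0.25 as the part of COL6A3 shrank.

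**Figure D4:**
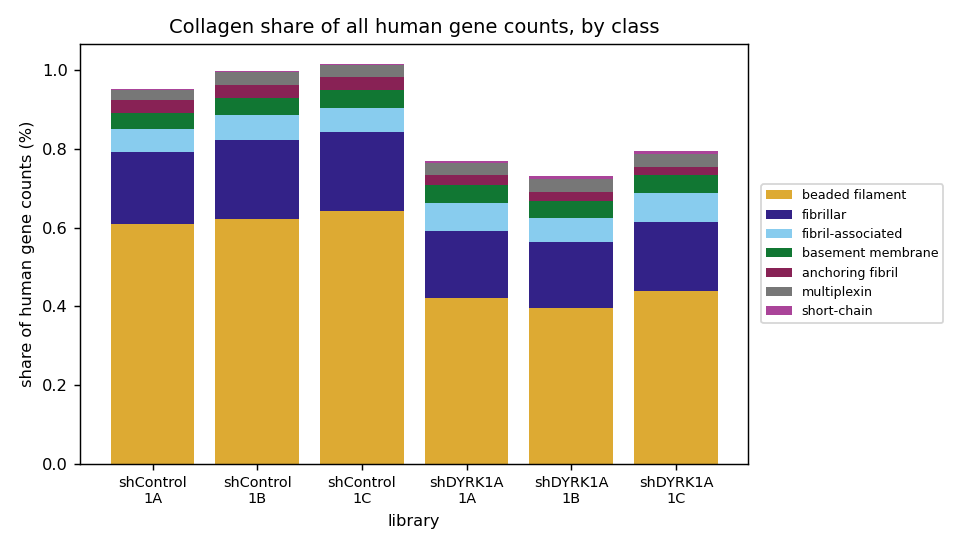
Share of all human gene counts (%, vertical axis, from 0) taken by collagen genes in each library (horizontal axis), stacked by class. Transmembrane and unclassified genes are too low to draw. The shControl bars reach 0.952 to 1.02% and the shDYRK1A bars 0.730 to 0.794%, and the beaded filament class (type VI) is the tallest segment in each.

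The genes that make, trim, bind and cut collagen were looked up from 4 lists. Of 22 genes of synthesis and secretion 20 were tested, 15 were lower by adjusted p alone and none higher, with a median of -0.54, beside 63.4% of all genes tested lower by adjusted p. Under TMM 10 of them were lower and 3 higher, with a median of -0.14. Of these P4HA1, a catalytic subunit of the prolyl 4-hydroxylase that stabilizes the helix, was called lower, with normalized counts of 6011, 6287 and 5172 in shControl and 3183, 2493 and 2805 in shDYRK1A. Its groups stood apart at -1.04 ± 0.14 (SE, edgeR adjusted p = 4.2e-12), but under TMM its log2 fold change was -0.64 and it was not called. The highest value of the list was P3H4 at -0.02 (adjusted p = 0.88), 0.38 under TMM. Of 8 propeptide processing genes 3 were tested and all 3 were lower by adjusted p alone, inside the fold threshold, from PCOLCE at -0.66 to ADAMTS2 at -0.41, beside the same 63.4% of all genes. Under TMM 2 of these 3 were lower by adjusted p, the median was -0.15 and ADAMTS2 had an adjusted p of 0.99.

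Of 10 collagen receptors 7 were tested, 3 were lower by adjusted p and none higher, with a median of -0.23, beside 63.4% of all genes lower and 1.08% higher. Under TMM 3 were lower and 4 higher, with a median of 0.17. ITGB1, the beta subunit shared by the collagen-binding integrins, had 23218, 22735 and 19456 normalized counts in shControl and 6400.0, 5233 and 6398 in shDYRK1A, a log2 fold change of -1.86 ± 0.14 (SE, edgeR adjusted p = 5.6e-39). DDR2, a receptor kinase for fibrillar collagen, had 5258, 5011 and 4301 in shControl and 3287, 2356 and 3011 in shDYRK1A, at -0.75 ± 0.14 (SE, edgeR adjusted p = 8.1e-07). Both were lower without overlap, but DDR2 fell short of the fold threshold without shControl 1A (-0.69) or without shDYRK1A 1B (-0.62) and under TMM (-0.35). ITGA2, the highest of the list, was at 0.08 (adjusted p = 0.60) and 0.47 under TMM. Of 6 collagenases and gelatinases 4 were tested, 2 were lower and 2 higher by adjusted p, beside 63.4% of all genes lower and 1.08% higher. Under TMM none was lower and 2 were higher, with a median of 0.46. MMP1, interstitial collagenase, had 5022, 4257 and 3995 normalized counts in shControl and 19839, 18019 and 18405 in shDYRK1A. That rise, the one call of the list, was 2.08 ± 0.14 on the log2 scale (SE, edgeR adjusted p = 9.6e-48), and MMP14, a membrane-bound collagenase, was the lowest at -0.47 ± 0.14 (SE, edgeR adjusted p = 0.0016; -0.07 and adjusted p = 0.21 under TMM). Whether the collagen proteins of the matrix changed was not measured.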

How the data were processed

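Messenger RNA from 6 T98G libraries was prepared with a stranded kit and sequenced as 125 bp pairs. The authors deposited raw gene counts, in 1 table for each library, and a table of spike-in normalized signal, which equals those counts divided by 1 constant per library. These constants, from the fly reads per the study's methods, were the size factors here. Per the processing notes the tools were STAR and DESeq2 and the builds hg38 and dm3. The aligner version, the annotation and the strand setting of the counting were not given in the sources used here. The authors' own comparison table (fold changes and p-values) was not used. Per-sample columns that matched no sample numbered 0. Lines that name no gene stayed out, among them unmapped reads (8.44 to 15.65% of all reads).

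Genes with a mean above 10 normalized CPM were kept (9697), and edgeR 4.0.16 in R 4.3.3 fitted them by its robust quasi-likelihood method (glmQLFit, glmQLFTest), with Benjamini-Hochberg adjustment over all of them. The SE was derived from the log2 fold change and its F statistic. Also tried were scaling by TMM or by median of ratios, DESeq2 1.42.0, filterByExpr, a 1-count filter, a block for the replicate letter, omission of each library in turn, and other thresholds. The combination of filterByExpr with TMM was chosen after seeing the data. Chain ratios were compared by an exact two-sided permutation test. Levels per kilobase used the union of GENCODE v29 exons. Coordinates are those of the authors' table (GRCh38), and promoters come from RefSeq (GRCh38.p14). The edgeR step was checked on simulated counts. Members, classes and lists were chosen with earlier results of these data known. Named genes were DYRK1A, every tested collagen, those kept by filterByExpr, and the called, lowest and highest genes of each list. The labels do not say whether libraries came from separate cultures, so p-values measure the spread between these libraries only. Libraries of a group differed beyond counting noise (chi-square per degree of freedom from 4.07 to 15.2), so none was taken as the same library sequenced again. That check cannot tell separate cultures from repeat preparations of 1 culture.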

Additional observations from a re-analysis of the deposited data

How the results depend on the processing

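The 5 lower and 2 higher collagen calls were also made by DESeq2 and in each fit without 1 library, and no fold change of the 18 tested collagen genes changed sign there. TMM and median-of-ratios scaling each gave 3 lower and 4 higher collagen calls among the same 18 genes. The filterByExpr setting, which tests 12 more members, and the 1-count filter each gave 7 lower and 3 higher. Counts over all genes in each setting follow below. An adjusted p alone gave 9 lower and 4 higher, and a fold threshold of 1 gave 3 lower and 1 higher. Collagen genes with an adjusted p below 0.05 numbered 12 to 16 without 1 library, against 13 with all and 14 with DESeq2. DYRK1A fell to -0.34 under TMM and -0.33 under median-of-ratios scaling, and ranged from -0.85 to -0.61 without 1 library.

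Signs turned under TMM and median-of-ratios scaling, both of which remove the shared shift, for COL6A1 (0.29 and 0.30), COL6A2 (0.13 and 0.14), COL12A1 (0.23 and 0.23), COL18A1 (0.032 and 0.035), COL4A1 (0.23 and 0.23) and COL1A1 (0.089 and 0.093). With filterByExpr and TMM together they turned for COL11A2 (0.16), COL9A3 (0.14) and COL4A4 (0.27).

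Over the 9697 genes of the main filter, lower and higher calls numbered 1386 and 27 (14.3% and 0.278%). Under TMM they numbered 187 and 121 (1.93% and 1.25%), and under median-of-ratios scaling 184 and 125. By adjusted p alone there were 6145 and 105 (63.4% and 1.08%), and at a fold threshold of 1 there were 305 and 9. With filterByExpr 2492 and 229 of 17530 genes were called, and with the 1-count filter 2468 and 224 of 32001. Without 1 library lower calls ran from 908 (without shDYRK1A 1B) to 2093 (without shControl 1C), with 2083 without shDYRK1A 1A, and higher calls from 16 to 32. The cause of these moves was not tested.

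Libraries of the same letter had correlated deviations of 0.15, 0.07 and 0.13, and each library correlated best with its own letter. Pairs of different letters were all below 0, from -0.09 to -0.01. Deviations were taken from the group mean of each gene, which pushes these values below 0 when same-letter values are above it. The labels do not say what the letters stand for, so the main fit used no pairing. Whether libraries of a letter were handled together was not tested. With the letter as a replicate block edgeR gave 5 lower and 2 higher collagen calls and 1394 and 28 over all genes, and DYRK1A was at -0.74. Pairing by letter cannot alter the mean change of a chain ratio (COL8A1 to COL8A2 at 2.21 on the log2 scale). The exact permutation p of every chain pair went from 0.1 without pairing to 0.25 with it. The collagen share difference ran from -0.24 to -0.21 percentage points without 1 library and was -0.23 without mitochondrial genes. By the longest transcript the 10 highest collagen genes per kilobase were the same 10, with COL6A3 and COL1A2 still first, but their order changed. COL6A2 passed COL6A1, COL4A2 went from rank 10 to 6 and COL12A1 from rank 5 to 8. Depth limits the genes under about 10 counts per library.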
